A study of Drosophila melanogaster with 3 samples.

Results

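The genes described here are those named for proteins of the cytosolic ribosome of Drosophila melanogaster. Some of them with -like symbols are relatives of yeast assembly factors. All were taken by symbol, as protein-coding genes named RpL or RpS followed by a digit, RpLP followed by a digit, or sta. The rule found 93 of the 13945 protein-coding genes on the 6 chromosome arms 2L, 2R, 3L, 3R, 4 and X, 54 of the large subunit and 39 of the small subunit. Chromatin immunoprecipitation and sequencing (ChIP-seq) mapped the chromatin sites of Nerfin-1, a zinc-finger protein of young neurons, in whole embryos of 4 to 16 h. The embryos, male and female together, came from a transgenic line that stably expressed nerfin-1 with GFP fused to its C terminus, and the precipitating antibody recognised GFP. There was 1 group of 3 biological replicates and no second genotype, stage or treatment among the samples. The age field of the labels holds an impossibly large value and was not used. The labels say neither which promoter drove the transgene nor whether the native nerfin-1 gene was intact, and chromatin of all embryonic cell types was pooled.

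A ribosome holds a single copy of nearly every one of its proteins, so their genes are transcribed at matched and high rates in growing cells. Flies with only a single working copy of many of these genes develop slowly and have short bristles, the Minute phenotype. In flies most ribosomal protein genes start transcription at a pyrimidine-rich initiator called TCT, in place of the common initiator. The factors Dref, M1BP and Trf2 are known at such promoters, and Dref binds the palindrome TATCGATA. Some of the proteins are encoded by a pair of genes, of which the second copy is in several cases used in the germline.

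The deposited peak lists give each site as a summit on the dm6 build, ordered here by the authors' signal so that rank 1 is the strongest. The list that passed the irreproducible discovery rate (IDR) limit held 7056 summits, and the list of each replicate held 30000, of which the 7056 strongest were used unless all are named. Summits were assigned by distance to the closest transcription start site (TSS) of a protein-coding gene, and a summit within 500 bp of that TSS was called a promoter summit. Distances to the TSS are negative upstream. The nearest gene need not be the gene that a site acts on. The lists hold no read counts, so depth is unknown, and the Wilson 95% intervals below cover counting error over genes only. Replicate 2 ordered its peaks differently from the others, and results are given with and without it where they rest on it.

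The sequences around the start sites are shown first, since the summits lay on or near them. Each line runs 5′ to 3′ on the strand of the gene, from 90 bp before the TSS to 20 bp after it, and was read from the RefSeq release 6 genome, which shares the coordinates of dm6. Capitals mark the Dref word TATCGATA and the TCT word, which is CTTTT or CTTTC preceded by C or T and was counted only within 10 bp of a TSS, so the same letters farther away stay in lower case. RpL14, RpL34b and RpS25 were among the 8 members with the strongest summits, at chr3L:8600916-8601026 (plus strand), chr3R:9401206-9401316 (minus strand) and chr3R:11216267-11216377 (minus strand).
RpL14: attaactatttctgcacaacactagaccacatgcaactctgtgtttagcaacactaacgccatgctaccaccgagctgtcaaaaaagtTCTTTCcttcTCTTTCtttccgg
RpL34b: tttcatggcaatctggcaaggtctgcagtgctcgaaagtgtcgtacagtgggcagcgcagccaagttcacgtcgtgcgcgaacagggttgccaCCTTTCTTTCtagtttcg
RpS25: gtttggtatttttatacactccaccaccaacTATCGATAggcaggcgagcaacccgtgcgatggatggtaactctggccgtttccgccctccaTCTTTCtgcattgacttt
Their IDR summits lay 26, 106 and 93 bp upstream of the TSS, those of RpL34b and RpS25 just before the first printed base. RpS25 carried the Dref word as well as the TCT word, whereas the stretches of RpL14 and RpL34b held 2 TCT words each and no Dref word.

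The next lines set 3 duplicated genes side by side, the copy with an IDR summit first and the copy without one second. They lie at chrX:16637804-16637914 (plus strand), chr3R:23933510-23933620 (minus strand), chrX:9554533-9554643 (plus strand), chr3R:30022628-30022738 (minus strand), chrX:17148244-17148354 (minus strand) and chr3R:14901543-14901653 (minus strand). RpS19b and RpS5b are known as germline copies.
RpS19a: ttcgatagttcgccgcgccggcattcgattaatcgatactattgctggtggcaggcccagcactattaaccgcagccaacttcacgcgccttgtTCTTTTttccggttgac
RpS19b: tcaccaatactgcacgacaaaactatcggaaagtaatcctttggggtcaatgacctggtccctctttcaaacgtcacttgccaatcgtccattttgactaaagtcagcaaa
RpS28b: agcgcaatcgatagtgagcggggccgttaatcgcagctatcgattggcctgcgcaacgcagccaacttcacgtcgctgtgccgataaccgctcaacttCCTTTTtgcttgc
RpS28a: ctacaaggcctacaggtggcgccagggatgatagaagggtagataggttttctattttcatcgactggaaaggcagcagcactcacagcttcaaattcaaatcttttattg
RpS5a: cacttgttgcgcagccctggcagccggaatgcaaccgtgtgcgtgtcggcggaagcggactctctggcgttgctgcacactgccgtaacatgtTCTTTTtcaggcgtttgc
RpS5b: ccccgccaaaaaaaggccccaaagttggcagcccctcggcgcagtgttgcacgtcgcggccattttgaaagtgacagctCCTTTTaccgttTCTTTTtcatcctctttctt
The copies without an IDR summit lacked the TCT word within 10 bp of the TSS at RpS19b and RpS28a but held 2 such words there at RpS5b. RpL15, at chr3L:27267165-27267275 (plus strand), is shown because it held the TCT word at its TSS and had no IDR summit.
RpL15: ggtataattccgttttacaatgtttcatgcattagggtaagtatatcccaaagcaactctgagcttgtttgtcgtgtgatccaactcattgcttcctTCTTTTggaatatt

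Nerfin-1 summits were found at the promoters of most ribosomal protein genes. In the IDR list 75 of the 93 genes (80.6%, Wilson 95% interval 71.5 to 87.4) had a summit, against 28.6% of all protein-coding genes. All 75 had it at a promoter, which 20.3% of all genes did. The 3 replicates gave 75, 77 and 73 genes with a summit among their strongest peaks, a mean of 75 ± 2.00 (SD, n = 3), where the shares of all genes were 27.2%, 30.3% and 26.9%. A promoter summit was found at 75, 76 and 71 members, where the shares of all genes were 19.6%, 21.3% and 19.6%. The share of ribosomal protein genes exceeded that of all genes by 53.5, 52.5 and 51.6 percentage points in replicates 1, 2 and 3, a mean of 52.5 ± 0.932 (SD, n = 3). With all peaks of each replicate the mean was 34.1 points, since more of all genes then had a summit (53.1%, 56.8% and 52.4%). The difference was far larger than the spread over replicates, and the two-sided exact sign-flip permutation test gave p = 0.25, the smallest that 3 replicates allow. Of the 84 IDR summits assigned to these genes, 81 were promoter summits, against 3317 of all 7056. The 84 summits lay at 75 genes, where the 7056 of the whole list lay at 3986 genes. Of the 75 genes, 8 had 2 or more summits, and that count was not taken for all genes.

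The summits recurred in the replicates, as far as a list drawn from the pooled replicates can show it. Of the 75 genes, 56 had an IDR summit with a partner within 100 bp among the strongest peaks of all 3 replicates, 15 in 2 replicates and 4 in 1 replicate. Such recurrence was found at 17.0% of all protein-coding genes. Taking only genes with an IDR summit, it was found at 74.7% of the ribosomal protein genes and 59.3% of all genes. Without replicate 2 the number was 62, with 20.8% of all genes.

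**Figure D1:**
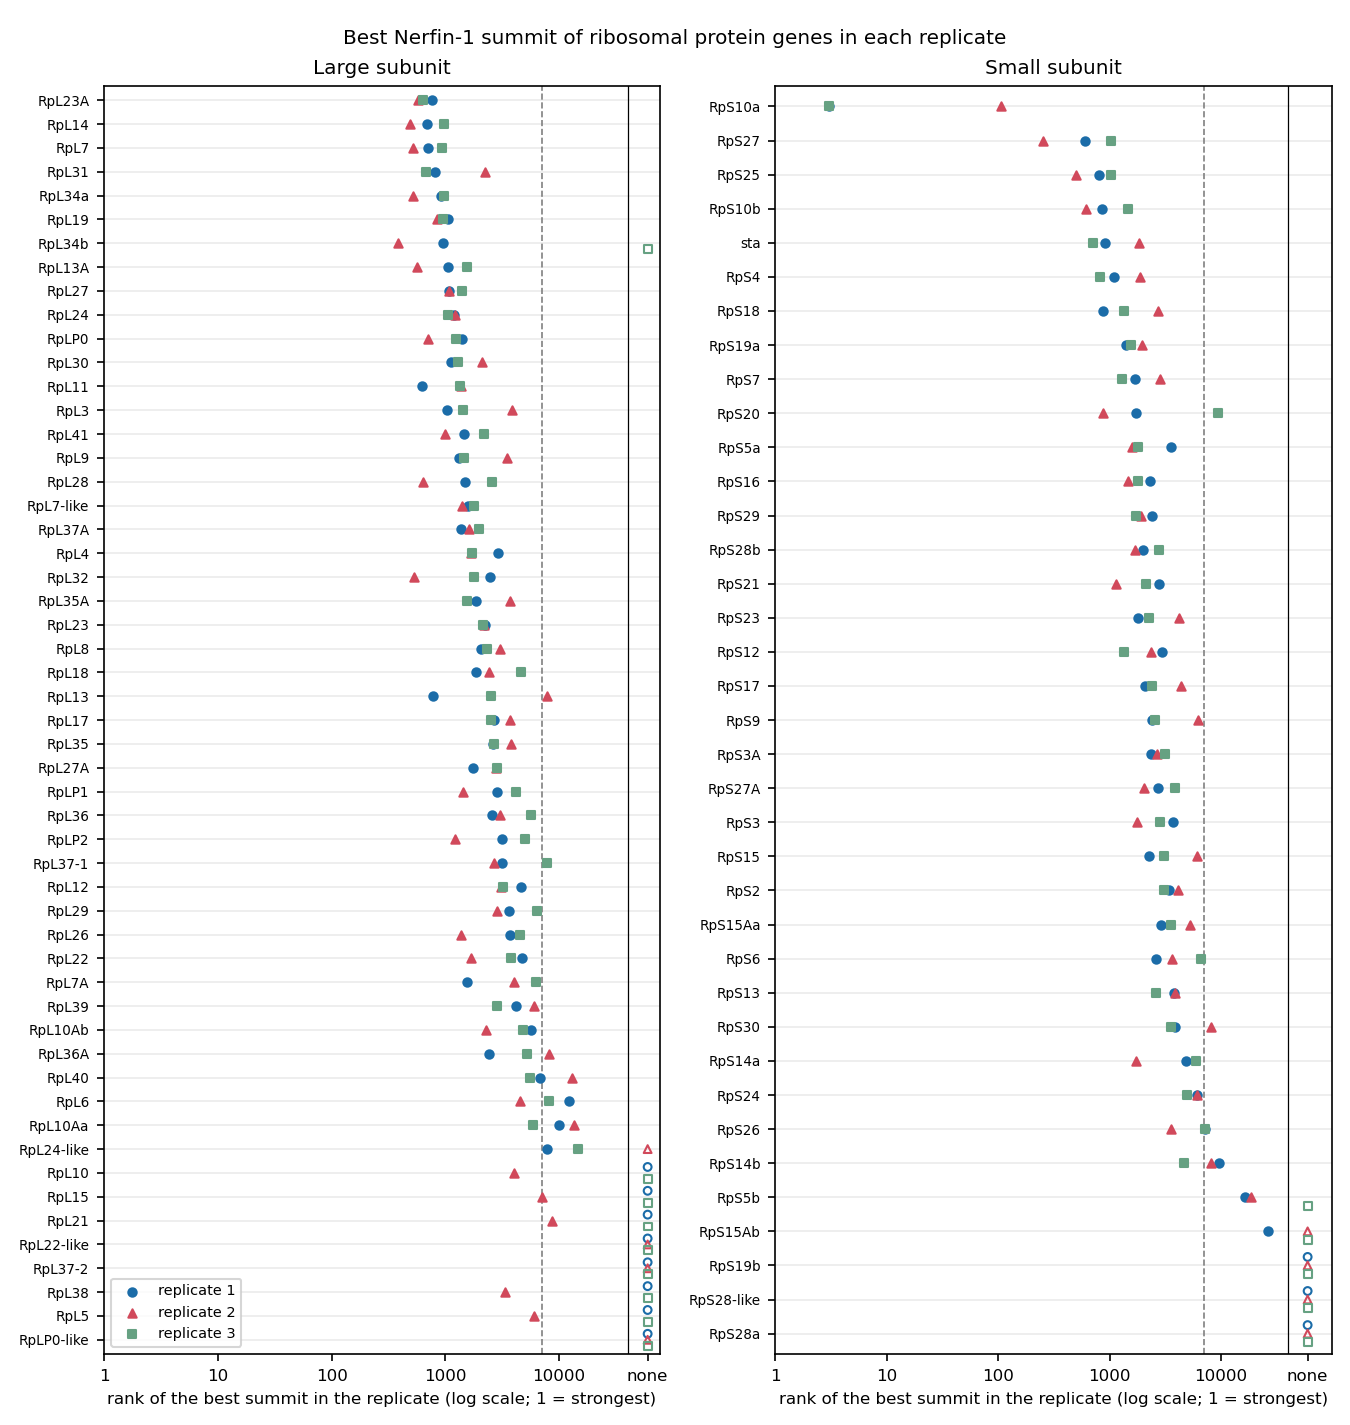
Rank of the best summit of the ribosomal protein genes shown in each replicate (x axis, log scale, 1 is the strongest), for the large subunit (left) and the small subunit (right). The dashed line marks rank 7056, and open symbols in the strip labelled none are genes without a summit in that replicate. RpS10a stands apart at ranks 3, 106 and 3, and 5 genes of the large subunit have a point in replicate 2 alone.

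The difference between large and small subunit genes was smaller than its spread over replicates. A summit was found at 42 of 54 large subunit genes (77.8%, Wilson 95% interval 65.1 to 86.8) and at 33 of 39 small subunit genes (84.6%, 70.3 to 92.8) in the IDR list, beside 28.6% of all genes. The replicates gave 79.6%, 83.3% and 77.8% for the large subunit and 82.1%, 82.1% and 79.5% for the small subunit, where all genes had 27.2%, 30.3% and 26.9%. The large minus small difference was -2.42 points in replicate 1, 1.28 in replicate 2 and -1.71 in replicate 3, a mean of -0.95 ± 1.97 points (SD, n = 3, two-sided exact sign-flip permutation p = 0.5). The sign of this mean changed under 3 other settings, among them leaving out symbols that end in -like.

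The genes of the mitochondrial ribosome, which encode a separate set of proteins named mRpL and mRpS, had summits less often than the cytosolic genes. In the IDR list 22 of 73 had a summit (30.1%, Wilson 95% interval 20.8 to 41.4), close to the 28.6% of all genes. Their shares were 16.4%, 32.9% and 16.4% in replicates 1, 2 and 3, so replicate 2 stood above the others, and every replicate lay below the cytosolic genes. All genes had 27.2%, 30.3% and 26.9%. The cytosolic share was higher by 64.2, 49.9 and 62.1 points, a mean of 58.7 ± 7.70 (SD, n = 3, two-sided exact sign-flip permutation p = 0.25, the smallest possible), and with all peaks of each replicate by a mean of 34.7. When any summit within 500 bp of a TSS was counted, whichever gene it was nearest to, 36 of 73 mitochondrial and 77 of 93 cytosolic genes had one, against 27.1% of all genes.

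**Figure D2:**
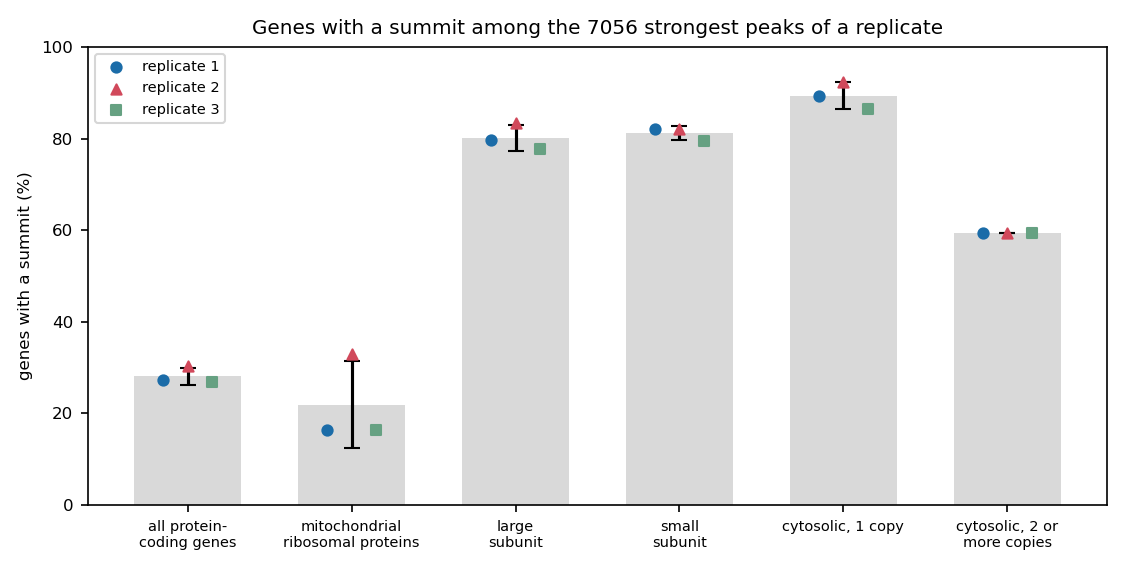
Share of genes with a summit among the 7056 strongest peaks of each replicate (y axis, %). Bars are means and error bars SD over 3 replicates, points are replicates. The bars of the large and small subunit stand at 80.2% and 81.2%, and that of the mitochondrial ribosomal protein genes at 21.9%.

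The summits lay close to the start sites. The best promoter summit of the 75 genes was at a median of -21 bp (quartiles -60 and 14) and within 100 bp of the TSS at 63 genes (84.0%). Over all genes with a promoter summit the median was -63 bp, and 46.8% lay within 100 bp. The large subunit had a median of -28 bp and the small subunit of -14 bp in the IDR list. In replicates 1, 2 and 3 the medians were -10, -45 and 15 bp for the large and 7, -54 and 13 bp for the small subunit, so neither subunit was upstream of the other in every replicate. By annotation, 38 of the 75 best summits lay between genes, 28 in an exon with 5′ untranslated sequence and 9 in an intron. The same split was not counted for the promoter summits of all genes.

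The position depended on the replicate. The median was -3 bp in replicate 1, -51 bp in replicate 2 and 15 bp in replicate 3 among the strongest peaks. Of 77 members with a promoter summit in all 3 full lists, replicate 2 was the most upstream at 52 (67.5%), against 46.4% of the 4289 protein-coding genes with such summits. A shift of replicate 2 was thus present over all genes too, where its median lay at -60 bp against -17 and -15 bp. A median taken from replicates 1 and 3 alone gives a summit on the start site, and one from replicate 2 gives a summit upstream of it. Without replicate 2, the median of the IDR summits found in the other replicates was -17 bp. With the outermost start of each gene as its only TSS, the median of the IDR list was -4 bp.

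**Figure D3:**
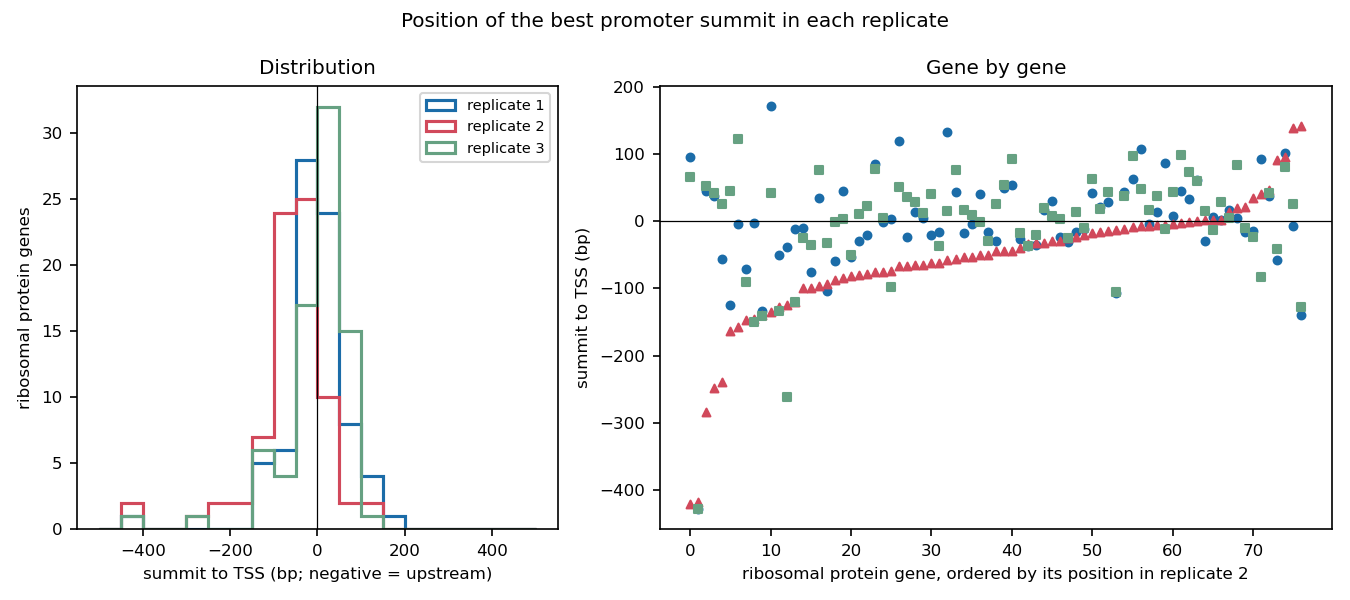
Distance from the TSS to the best promoter summit of the 77 genes with one in every replicate (bp, negative is upstream), as a histogram in bins of 50 bp (left) and gene by gene in the order of replicate 2 (right). The red triangles of replicate 2 lie below the other symbols at 52 of the 77 genes.

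By strength, the summits of these genes were in the upper part of the list. Their median rank in the IDR list was 2080, against 2760 for all genes with a summit, and 59 of 75 (78.7%) ranked in the stronger 3528, against 61.0% of all genes with a summit. The first 1000 ranks held 15 of the 75, close to the share of all genes with a summit (850 of 3986). In replicates 1, 2 and 3 they held 15 of 75, 17 of 77 and 9 of 73 members. For all genes the counts were 816 of 3790, 860 of 4223 and 832 of 3750, so members were not in excess at the very top. The median ranks in replicates 1, 2 and 3 were 2042, 2024 and 2239, where those of all genes were 2730, 2784 and 2768. The median rank of the large subunit was 1998 and that of the small subunit 2189 in the IDR list. In replicates 1, 2 and 3 the large subunit had 1577, 2086 and 2153 and the small subunit 2370, 1986 and 2423, so the order was the opposite in replicate 2.

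The strongest member stood alone. RpS10a (FBgn0027494), a copy of the gene for small subunit protein S10, had rank 4 in the IDR list and ranks 3, 106 and 3 in replicates 1, 2 and 3. In every replicate it was the strongest of the members with an IDR summit, and in replicate 3 the next was RpL23A at rank 641. Its peak, 990 bp wide at chr3R:27651773-27652762, had its summit 429 bp upstream of its TSS. The summit lay in an intron of tau, which encodes a microtubule-associated protein and runs on the other strand from 27639886 to 27656996, 1577 bp from the nearest tau TSS. It was assigned to RpS10a by distance alone, and RpS10a had no TCT word. The 101 bases centred on the summit, chr3R:27652281-27652381 (plus strand), hold a word of the TEAD factor family, CATTCC, in capitals.
RpS10a summit: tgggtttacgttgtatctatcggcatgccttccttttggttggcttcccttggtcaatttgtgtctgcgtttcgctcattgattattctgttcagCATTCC

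Other strong members were given their summits by the same nearest-TSS rule. A gene on the other strand starts 144 bp from RpS27 (Nup37), 229 bp from RpL34a (Trmt61) and 248 bp from RpS25 (CG4820). RpS27, of the small subunit, ranked 597, 252 and 1025 in replicates 1, 2 and 3, with an IDR rank of 441 and its summit 3 bp upstream of the TSS. RpL14 ranked 691, 494 and 973 and had IDR rank 588. Both genes ranked highest in replicate 2 and lowest in replicate 3. RpL7, at ranks 709, 522 and 941 (IDR rank 624), RpS25, at 808, 501 and 1022 (IDR rank 636), and RpL34a, at 907, 525 and 966 (IDR rank 664), followed the same order. RpS25 is known in yeast and human cells for its part in initiation at internal entry sites. RpL34b had IDR rank 525 and ranks 962 and 387 in replicates 1 and 2. Its summit in replicate 3, at rank 690, lay 38 bp from the IDR summit and was assigned to CG8132, whose TSS is 269 bp away on the other strand.

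Members of the P stalk, the arm of the large subunit that recruits elongation factors, all had summits. RpLP0, the base of the stalk, ranked 1398, 704 and 1250 in replicates 1, 2 and 3 and 875 in the IDR list. RpLP1 ranked 2863, 1416 and 4209, with IDR rank 1984. RpLP2 had IDR rank 2316, and its best promoter summit ranked 5941, 1221 and 8630 in the full replicate lists. The stalk genes ranked highest in replicate 2 and, for RpLP1 and RpLP2, lowest in replicate 3, where the promoter summit of RpLP2 was outside the strongest 7056 peaks. The small subunit gene sta (stubarista), the fly gene for the protein called RPSA in human, ranked 910, 1826 and 707, with IDR rank 1062, so it was lowest in replicate 2.

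The order of strength differed between replicates. Across the 77 genes with a promoter summit in every full list, Spearman's rho of the ranks was 0.793 between replicates 1 and 3, 0.523 between 1 and 2 and 0.520 between 2 and 3. Over all 4289 such genes the values were 0.848, 0.672 and 0.639. These are descriptions across genes, which share libraries and are not replicates. Among the members that replicate 2 ranked highest relative to the others were RpLP2 and RpS20, and those it ranked lowest were RpS10a, RpL13 and RpL3.

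Some of these shifts came with a change of the assigned gene. RpL3, whose protein reaches into the peptidyl transferase centre, ranked 1043, 3862 and 1443 in replicates 1, 2 and 3, all at its own promoter. RpL13 ranked 775, 7761 and 2512. In replicate 2 a stronger summit, at rank 1055, lay 36 bp from the RpL13 IDR summit and was assigned to Dref, whose TSS is 84 bp away on the other strand. RpS20 ranked 1719, 864 and 9325, and in replicate 3 a stronger summit, at rank 2587 and 32 bp from the RpS20 IDR summit, was assigned to CG17271.

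The 18 genes without an IDR summit fell into 3 sets. Of these, 10 were copies in duplicated families, 5 were genes with a summit in replicate 2 alone, and 3 had a summit in every replicate. The last 3 lay just under the limit of the IDR list. RpL40, which encodes a ubiquitin fusion, had pooled rank 7097 and RpL6 had 7391. Among the members just inside the limit were RpL10Ab at rank 6887 and RpS14b at 6590.

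The 5 genes with a summit in replicate 2 alone were RpL5, RpL10, RpL15, RpL21 and RpL38, all of the large subunit. RpL5, which binds 5S ribosomal RNA, ranked 5971 in replicate 2 with a summit 15 bp upstream of the TSS and lay 0.977 Mb from the base of arm 2L. RpL10, which in yeast joins the subunit late in the cytoplasm, ranked 4020, with its summit at -8 bp, and lay 5.01 Mb from the base of 3L. RpL15 ranked 7038 with its summit at -17 bp and lay 0.843 Mb from the base of 3L. RpL38 ranked 3356 with its summit at -91 bp and lay 4.52 Mb from the base of 2R, and RpL21 ranked 8740 with its summit at -54 bp, 1.27 Mb from the base of 2L. All were closer to the base of their arm, the end next to the centromere, than any summit of replicates 1 and 3. RpL5, RpL15 and RpL38 are known to lie in or beside pericentromeric heterochromatin. Of the 113 protein-coding genes placed that close to the base, 68 (60.2%) had a summit in the full list of replicate 2. In replicate 1, 3 of them had one, as did 3 in replicate 3 and 3 in the IDR list. The limit was drawn from the summits of replicates 1 and 3, so the low counts of those replicates were fixed in advance. G+C content at the TSS was between 30.8% and 36.3% in the 5 genes, against a median of 43.8% in the 75 genes with an IDR summit. Those 75 ranged from 30.3% to 58.7%, and all 18 members without an IDR summit had a median of 36.3%. A low value was thus not particular to these 5 genes. The part of either measure in the result was not tested. In the full list of replicate 2, all 66 members of no duplicated family had a summit, where 56.8% of all genes did, and 61 had one in each of replicates 1 and 3, with 53.1% and 52.4% of all genes.

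In most duplicated families a single copy carried the IDR summit. The symbols gave 13 families with 27 genes. An IDR summit was found at 17 of the 27 (63.0%, Wilson 95% interval 44.2 to 78.5) and at 58 of the 66 genes of no family (87.9%, 77.9 to 93.7), where 28.6% of all genes had one. The share among the strongest peaks was 59.3% in each replicate for families and 89.4%, 92.4% and 86.4% for the others, beside 27.2%, 30.3% and 26.9% of all genes. The others were higher than the families by a mean of 30.1 ± 3.03 points (SD, n = 3, two-sided exact sign-flip permutation p = 0.25, the smallest possible). In 4 families at least 2 copies had an IDR summit, in 9 families 1 copy did, and in no family were all copies without one.

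**Figure D4:**
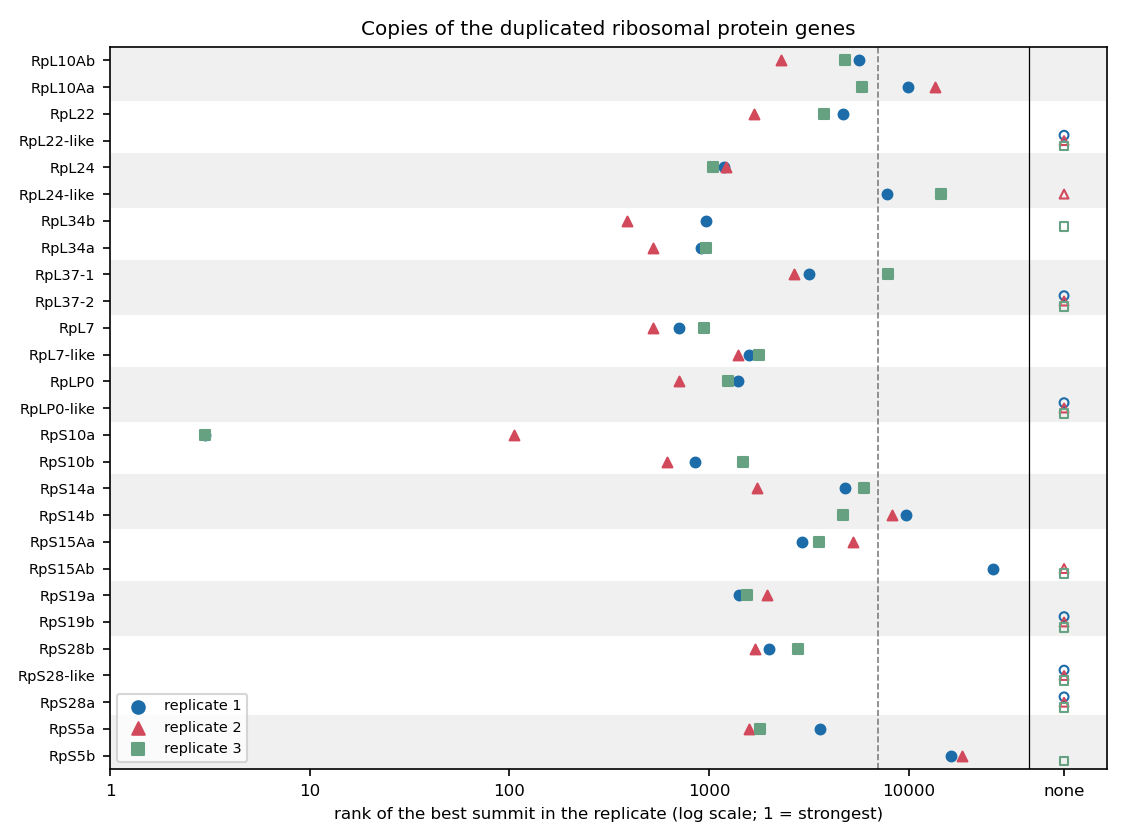
Rank of the best summit of each copy of the 13 duplicated families in each replicate (x axis, log scale, 1 is the strongest), with families in alternating bands. The dashed line marks rank 7056 and open symbols mark copies with no summit in that replicate. RpL22, RpL37-1, RpLP0, RpS19a and RpS28b have a point in every replicate, and RpL22-like, RpL37-2, RpLP0-like, RpS19b, RpS28-like and RpS28a have none.

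The families with summits at 2 copies were RpL7, RpL34, RpS10 and RpS14. RpS10b, the other S10 gene, ranked 848, 615 and 1475 in replicates 1, 2 and 3 and lay below RpS10a in each. RpL7-like, a relative of the yeast assembly factor Rlp7, ranked 1577, 1399 and 1783, below RpL7 in each replicate. RpL7-like has a start site in common with CG34164 on the same strand, and a shared start was given to the gene with the first identifier. The RpL7-like summit could therefore equally be counted for CG34164. A stronger summit, at IDR rank 167 and nearest to JhI-21, also lay within 500 bp of RpL7-like. RpS14a and RpS14b lie side by side on the X chromosome. RpS14a ranked 4821, 1739 and 5969 and RpS14b 9695, 8210 and 4672, so RpS14b was the stronger copy in replicate 3 alone. Their coding sequences were identical at 97.8% of 453 aligned positions, so the placement of reads within the coding regions is uncertain.

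In the other 9 families, 1 copy had the IDR summit. RpS19a ranked 1415, 1949 and 1551, and RpS19b had no summit in any list. RpS5a ranked 3578, 1593 and 1806, and RpS5b 16273 and 18504 in replicates 1 and 2, with none in replicate 3. RpS28b ranked 2008, 1707 and 2775, and neither RpS28a nor RpS28-like had a summit. RpS15Aa ranked 2911, 5288 and 3573, whereas RpS15Ab, at 98.2% identity of coding sequence, had only rank 26585 in replicate 1. RpL22 ranked 4709, 1673 and 3745, and RpL22-like, a copy known from the testis, had none. RpL37-1 ranked 3175, 2665 and 7854, and RpL37-2 had none. RpL10Ab ranked 5617, 2286 and 4806. The summits nearest to RpL10Aa, at ranks 9954, 13567 and 5869, lay 2353, 2434 and 2244 bp downstream of its TSS.

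The RpL24-like and RpLP0-like copies lay beside a site assigned to another gene. RpL24 ranked 1184, 1215 and 1050, and RpL24-like, a relative of the yeast assembly factor Rlp24, had rank 7774 in replicate 1 and 14518 in replicate 3. RpL24-like lies 156 bp from CG5276 on the other strand, and an IDR summit at rank 5730, assigned to CG5276, lay 82 bp from the RpL24-like TSS. RpLP0-like, a relative of the yeast assembly factor Mrt4, had no summit of its own and lies 87 bp from 14-3-3zeta, to which a summit of IDR rank 322 within 500 bp of RpLP0-like was assigned. When any summit within 500 bp was counted, these 2 genes were added and 77 members had one.

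Within the duplicated families the TCT word was more frequent at copies with a summit. It was found at 15 of the 17 copies with an IDR summit and at 2 of the 10 without, RpL37-2 and RpS5b. The exceptions among copies with a summit were RpS10a and RpL34a. Over all members the word lay within 10 bp of a TSS at 75 of 93 (80.6%), against 4.09% of all protein-coding genes and 2.74% of the mitochondrial ribosomal protein genes. The 75 with the word are not the same genes as the 75 with a summit. Of the members with an IDR summit 66 of 75 (88.0%) had the word, and of those without 9 of 18. With only the outermost start of each gene, 46 members had it. The share of all genes and the counts by summit were not computed for that setting. Among members with a summit, the median IDR rank was 2077 with the word and 2137 without it.

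Other promoter words were sought on both strands from 250 bp before to 50 bp after the outermost TSS. The Dref word TATCGATA was found at 28 members (30.1%), against 9.37% of all genes and 426 of 2832 genes with a promoter summit. It was found at 25 of 75 members with an IDR summit and 3 of 18 without. Among members with a summit, the median IDR rank was 2198 with the Dref word and 2043 without it. The M1BP word GGTCACAC was found at 16.1% of members and 7.71% of all genes, and the E-box CACGTG of Myc and Max at 9.68% and 4.24%. The GAGA word GAGAG was found at 17.2% of members, against 29.8% of all genes. The TEAD word GGAATG was found at 9.68% of members and 11.0% of all genes, the INSM1 word CAGGGG at 5.38% and 4.22%, and the TATA word TATAAA at 48.4% and 45.9%. No word sought contains another, and a match is only a match of letters. Within 50 bp of the summit itself, the Dref word was found at 10 of 84 member summits (11.9%), against 3.11% of the promoter summits of all genes. The M1BP word was at 5 summits (5.95% against 2.32%), the E-box at 4 (4.76% against 1.54%) and the INSM1 word at 2 (2.38% against 1.69%). The TATA word was at 8 (9.52% against 17.5%), the GAGA word at 5 (5.95% against 13.5%) and the TEAD word at 2 (2.38% against 6.24%). These last 3 were less frequent at the summits of members, but the counts are small. In the wider promoter window only the GAGA word was clearly less frequent at members, as given above.

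Many members lie close to the start of a gene on the other strand. A start site of such a gene lay within 500 bp of 36 members (38.7%), against 26.3% of all protein-coding genes. RpL13 lies 84 bp from Dref, RpL7 30 bp from Ripalpha and RpL14 127 bp from Nelf-E, and in these 3 pairs the IDR summit was nearest to the ribosomal protein gene. Dref was assigned no other summit than that of replicate 2 described above. The lists cannot tell which gene of such a pair a summit belongs to.

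Other lists of genes related to translation differed in the share with a summit. Of 7 elongation factor genes, 5 had an IDR summit (71.4%), led by eEF1gamma at rank 149 and eEF1alpha2 at rank 245, while eEF1beta and eEF1delta had none. Among the strongest peaks of replicates 1, 2 and 3, 5, 6 and 7 of them had one, where all genes had 27.2%, 30.3% and 26.9%. The eEF1gamma summit lay far from its TSS, at -5734 bp. Of 16 ribosome biogenesis genes, 6 had one (37.5%), led by l(3)72Dn at rank 353 and the nucleostemin gene Ns1 at rank 779, and none was found at the fibrillarin gene Fib or at Mat89Ba. The Ns1 summit lay 7500 bp downstream of its TSS. Of 9 genes for regulators of ribosomal protein promoters, 4 had one (44.4%). The best were REPTOR, a transcription factor under control of TOR, at rank 54 and Myc at rank 1839, with summits at 2572 bp and -17816 bp from the TSS, and Dref and Irbp18 had none. The IDR shares of these lists are read against 28.6% of all genes, and the lists are short.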

How the data were processed

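ChIP-seq of GFP-tagged Nerfin-1 was deposited as narrowPeak lists on dm6, 1 for each of 3 replicates, 1 pooled and 1 thresholded by IDR, each called against a control per the file headers (control not used here). Aligner, peak caller and IDR limit: not given in the sources used here. Column 7, the signal that the authors deposited without a stated normalization, served only to order peaks within a list. The 7056 IDR peaks were the 7056 strongest pooled peaks, so that list did not require a peak in each replicate. Fragments of 200 to 800 bp are named in the labels. Depth is unknown.

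Genes came from Ensembl release 115 (BDGP6.54) and sequence from the RefSeq release 6 genome. Summits were assigned to protein-coding genes by the closest TSS of any transcript, and a TSS shared by genes went to the first gene identifier. Families are symbols equal after a final a or b, -1 or -2, or -like is removed, and coding identity came from global alignment of 15 pairs. Differences between shares were tested within replicates by an exact two-sided sign-flip test, whose smallest p is 0.25, so it cannot pass 0.05, and p-values measure only the spread between these replicates. The members and lists were chosen with earlier results of these data known. Named genes were members without an IDR summit, the 8 strongest members, members of families, the stalk genes, sta, the 3 with the largest rank shift of replicate 2 in each direction, the 2 best and up to 2 without a summit of each other list, and promoter neighbours. Of the genes that this rule takes, 3 are not reported here. RpL23A, outside that rule, was named after its values were seen. Assignment was tested on 2000 simulated summits planted beside isolated start sites, and 100% returned to their gene. No other gene started nearby in that check, so it cannot test assignment at shared promoters. Alternatives changed the assignment rule, the competing genes, the TSS, the number of peaks, the replicates, the promoter width, the shared distance, the symbols and the TCT window. Python 3.11.15, numpy 2.4.6, pandas 2.3.3, scipy 1.17.1, Biopython 1.88 and matplotlib 3.10.9 were used.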

Additional observations from a re-analysis of the deposited data

How the results depend on the processing

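Of 77 recomputed values, 68 kept their direction and stayed within the limits set (1.5 times for a count, the SD over replicates for a median, the sign for a difference), although some changed in size. With all peaks of each replicate the gap to all genes was 34.1 in place of 52.5 points, that to mitochondrial genes 34.7 in place of 58.7, and the subunit difference -2.71 in place of -0.95. The mean difference between large and small subunit shares turned positive when any summit within 500 bp counted (1.52 points), with the stronger 3528 peaks (4.23) and without -like symbols (1.33), so it has no stable sign, and the cause was not tested. The number of members recurring in all replicates fell from 56 to 36 with the stronger 3528 peaks and to 30 with a shared distance of 50 bp, where fewer summits can match by construction. The TCT word was at 46 members with outermost starts alone, where the share of all genes was not computed. The median distance was 15 bp in replicate 3 alone (added after seeing the data) and -51 and -3 in replicates 2 and 1. Leaving out each replicate in turn required an IDR summit to match in both remaining replicates, so the counts of members with a summit and of recurrence (added after seeing the data) became the same 60 to 62, below 75 by this requirement. It gave a median rank of 1820 to 1990, a median distance of -26 to -17 bp, a subunit difference of -2.07 to -0.214 points, 52.1 to 53.0 points over all genes, 56.0 to 63.1 over mitochondrial genes, 59 to 61 promoter genes and 3 families with at least 2 marked copies. With all pooled peaks 82 members had a summit, with 51.8% of all genes. Families with at least 2 marked copies were then 6, as when any summit within 500 bp counted. RpS6 lost its summit when non-coding genes competed. No paired analysis was possible because there is 1 group. Read depth is unknown and limits every count.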
